A study of Mus musculus with 24 samples.

Results

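Carboxylesterases are serine hydrolases that cleave ester, amide and thioester bonds in drugs, pesticides and lipids, and in the mouse they form a large family in which most of the liver enzymes belong to the Ces1, Ces2 and Ces3 groups. The genes described here are 10 of them, Ces1b, Ces1c, Ces1d, Ces1e, Ces1f, Ces1g, Ces2a, Ces2c, Ces3a and Ces3b. They were taken as the array probes bearing these names and were 10 of the 22088 genes tested, each read by 1 probe. The probes of all 10 were well above background on 24 of 24 arrays. Another 9 Ces genes had 12 probes on the array, and 6 of those genes were tested.

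Most liver carboxylesterases lie in the lumen of the endoplasmic reticulum, where they meet both foreign esters and stored or newly made neutral lipid. Some members hydrolyse triglyceride or diglyceride and take part in the supply of lipid for very low density lipoprotein (VLDL) secretion. Others are best known for activating or inactivating ester drugs, and several respond to the xenobiotic receptors CAR and PXR.

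RNA was measured on 1-colour Agilent arrays in livers of female mice, 8 weeks old, of a sv129/C57 background, with 1 array per mouse and 6 mice in each of 4 groups. The KO mice lack both liver X receptors, LXRα (gene Nr1h3) and LXRβ (gene Nr1h2), which sense oxysterols. They were given either fumonisin B1 (FB1), 10 mg/kg each day over 1 month (KO FB1), or water (KO control). The WT mice, with both receptors, received the same FB1 treatment (WT FB1) or water (WT control). FB1 is a mould toxin that blocks ceramide synthases. The labels do not say how the receptor genes were deleted, whether WT mice were littermates of the KO mice or whether the mice shared cages. The p-values weigh each difference against the spread of these arrays within groups. An effect of litter or cage that went with group could not be told apart from it.

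All levels are log2 of the processed signal relative to the 75th percentile of the same array. Levels of different probes cannot be set against each other as amounts of RNA, so genes are compared here by their differences between groups or arrays. Mean levels serve to sort genes by brightness and to choose among the probes of a gene. A gene is called where limma's adjusted p is under 0.05 over the 22088 genes, and the value after ± is the standard error of the log2 difference. Per array, 58.7% to 64.5% of spots were well above background. Arrays of the same group correlated at r = 0.984 to 0.994 over genes. The arrays lay on 3 slides, each with 2 arrays of every group. The number of arrays limits the precision. The Nr1h3 probe lay between -5.13 and -2.56 in KO livers, against 4.71 to 5.06 in WT livers, and the Nr1h2 probe lay between 0.31 and 0.80 in KO livers, against 4.02 to 4.34 in WT livers. In bulk liver RNA, fewer cells of a type and less RNA per cell cannot be told apart.

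FB1 in KO mice lowered most of the Ces1 genes and Ces2a and raised Ces2c. Of the 10 carboxylesterases 7 were called, 6 lower and 1 higher, in a comparison in which 41.2% of all tested genes were called (24.6% lower and 16.5% higher). Brighter genes, as most of the 10 are, were called lower more often. The share called lower was 34.2% of genes with a mean level of 2 to 4, 46.6% at 4 to 6 and 51.8% above 6. The median log2 difference was -0.41 over the 10 genes, beside -0.08 over all tested genes. For 5 of the 10 the KO FB1 and KO control arrays did not overlap, which was so for 18.4% of all genes. The sign of each of the 7 called differences was the same on each of the 3 slides. The plot of levels by group shows every array.

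**Figure D1:**
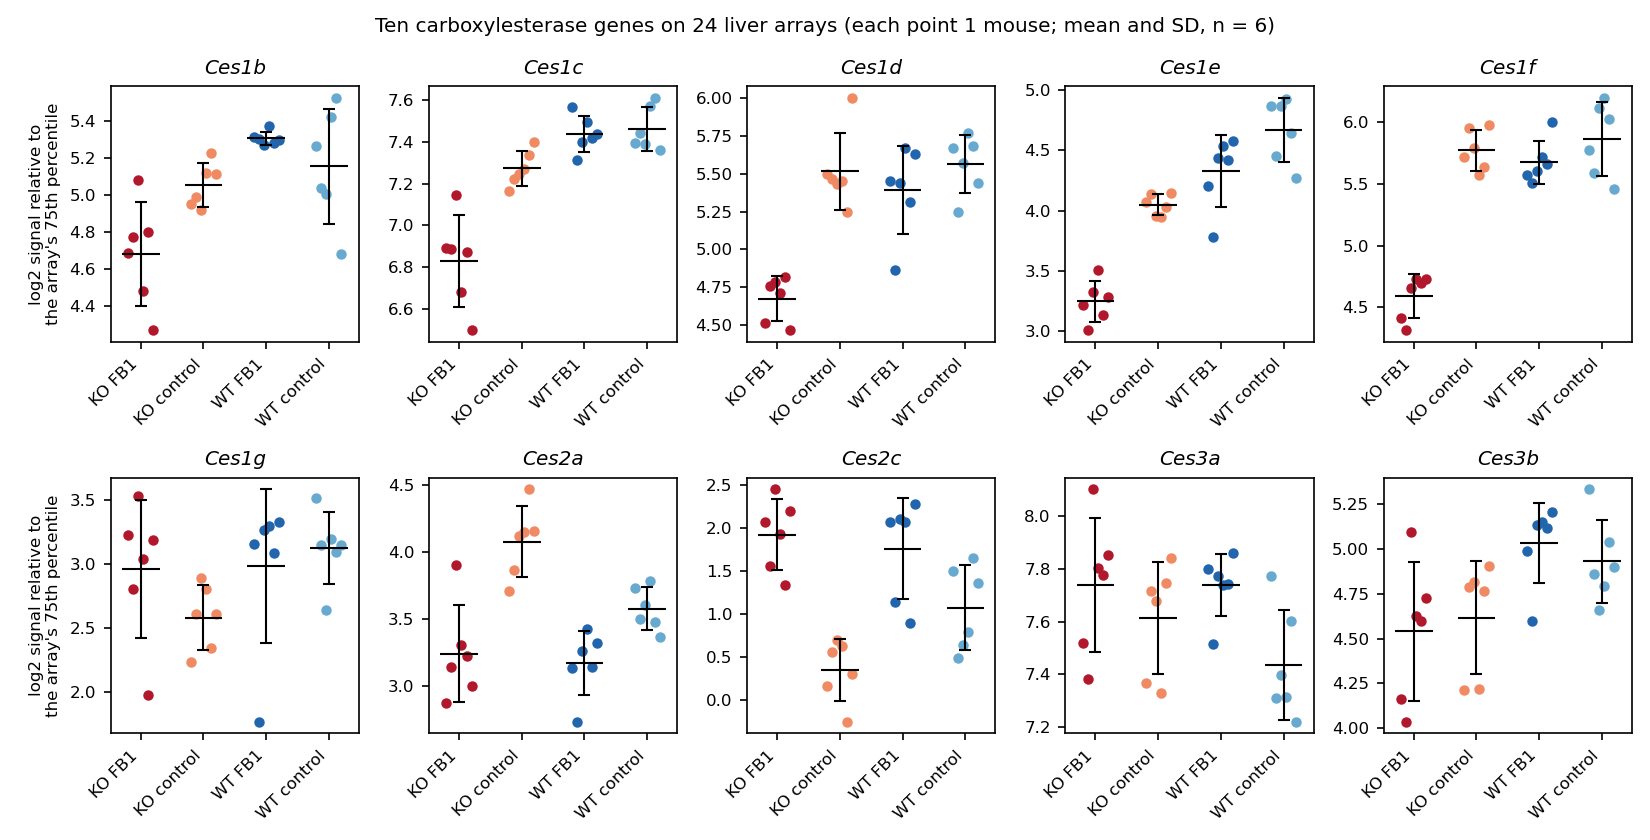
Log2 signal relative to each array's 75th percentile (vertical axes, a separate scale per gene) for the 10 carboxylesterases in KO FB1, KO control, WT FB1 and WT control livers. Each point is 1 mouse, and bars give the mean and SD of 6. KO FB1 points for Ces1f end at 4.73, below the lowest point of every other group, while those for Ces2c start at 1.33, above the KO control points.

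Ces1f, one of the Ces1 enzymes able to act on triglyceride, had the largest fall among the 10. Its level was 4.32, 4.68 and 4.73 (lowest, median and highest) in KO FB1 livers and 5.57, 5.75 and 5.98 in KO control livers. All 6 KO FB1 arrays lay below all arrays of the other 3 groups, whose lowest was 5.46. The difference was -1.18 ± 0.12, a 2.27-fold fall (adjusted p = 2.28e-07), and it was -1.21, -1.15 and -1.19 within the 3 slides.

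Ces1d, long studied as triacylglycerol hydrolase, moves stored triglyceride towards VLDL. It lay at 4.46, 4.73 and 4.82 in KO FB1 livers, against 5.25, 5.46 and 6.01 in KO control livers. The groups did not overlap, and KO control replicate 6 stood 0.50 above the next array of its group. The fall was 1.79-fold (-0.84 ± 0.13, adjusted p = 2.53e-05). Within the slides it was -0.55, -1.01 and -0.97.

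Ces1e is also called egasyn, the protein that holds β-glucuronidase in the endoplasmic reticulum. Its level was 3.005, 3.25 and 3.502 in KO FB1 livers and 3.95, 4.05 and 4.15 in KO control livers, again without overlap. The difference was -0.81 ± 0.13 (1.75-fold, adjusted p = 3.12e-05).

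Ces1c is the secreted carboxylesterase of mouse plasma, and Ces1b is its close neighbour on the chromosome. Both fell by smaller amounts. Ces1c lay at 6.498, 6.88 and 7.14 in KO FB1 livers and at 7.17, 7.26 and 7.40 in KO control livers, so that the groups met without overlapping. Its difference was -0.44 ± 0.08 (1.36-fold, adjusted p = 1.85e-04). Ces1b lay at 4.27, 4.73 and 5.09 in KO FB1 livers, against 4.92, 5.05 and 5.23 in KO control livers. These groups overlapped through the highest KO FB1 array, replicate 3, and the difference was -0.37 ± 0.12 (adjusted p = 0.0203). Without KO FB1 replicate 6, the lowest array for both genes, Ces1b was not called (-0.29 ± 0.12, adjusted p = 0.064).

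The size of the Ces1b and Ces1c falls depended on how arrays were scaled. Bright genes fell more than dim ones in this comparison. Among the 830 genes with a mean level above 6, where Ces1c lies, the median difference was -0.23 and 51.8% were called lower. Among the 1601 genes with a mean of 4 to 6, where Ces1b lies, the median was -0.18 and 46.6% were called lower. Among the 12177 genes with a mean at or below 0 the median was -0.03 and 17% were called lower. With quantile normalization the differences were -0.22 ± 0.12 for Ces1b (adjusted p = 0.143) and -0.20 ± 0.08 for Ces1c (adjusted p = 0.0574), and neither was called. In the authors' deposited table Ces1c differed by -0.14 ± 0.08 (adjusted p = 0.14).

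Ces1b and Ces1c are read by probes that cover the same part of their transcripts. The probes are shown because each runs over an exon junction and shares most bases with the other. The Ces1b probe lies on chromosome 8 at 95581314 to 95584247 and the Ces1c probe at 95624607 to 95628058 (mm9, minus strand). Capitals mark the bases that differ where the probes overlap.
Ces1b probe: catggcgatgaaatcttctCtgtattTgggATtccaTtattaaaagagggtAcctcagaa
Ces1c probe: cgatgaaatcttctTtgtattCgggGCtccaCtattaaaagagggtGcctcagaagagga
Over 55 overlapping bases they match at 49 and differ at 6. Written with the Ces1b base first and counted from the 5′ end of the Ces1b probe, the differences are C20T, T27C, A31G, T32C, T37C and A52G. How far each probe also binds the other transcript was not tested. The deviations of the 2 genes from their group means correlated at r = 0.82 over the 24 arrays, given as a description, since the points share arrays and the probes share sequence.

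The sequences before the transcription starts of Ces1b and Ces1c are also alike over much of their length. They are shown because both genes were called lower on the main scale, though not with quantile normalization. RefSeq (GRCm38.p6) lists 2 starts for Ces1b, and the window before the outer one is given. Both windows are 250 bases long, on the minus strand, and read towards the gene. Capitals mark the longest run they share, 58 bases, which ends 39 bases before the start in Ces1b and 127 before it in Ces1c.
Ces1b window, chr8:93080018-93080267: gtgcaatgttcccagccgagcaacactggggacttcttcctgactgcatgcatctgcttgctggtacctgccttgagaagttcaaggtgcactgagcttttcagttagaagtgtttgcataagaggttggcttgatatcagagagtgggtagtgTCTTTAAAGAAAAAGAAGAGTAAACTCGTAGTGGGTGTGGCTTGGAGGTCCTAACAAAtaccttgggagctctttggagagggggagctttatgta
Ces1c window, chr8:93131284-93131533: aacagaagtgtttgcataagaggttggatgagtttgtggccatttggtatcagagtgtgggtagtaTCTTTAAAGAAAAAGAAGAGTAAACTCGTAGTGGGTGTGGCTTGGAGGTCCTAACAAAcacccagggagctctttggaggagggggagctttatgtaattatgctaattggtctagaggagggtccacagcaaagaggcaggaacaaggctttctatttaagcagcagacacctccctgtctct
In a local alignment 144 bases of the 2 windows aligned, with 95.1% identity. The window before the inner Ces1b start, which is not shown, aligned with the Ces1c window over 219 bases, with 95% identity. Windows were given for 7 of the 10 genes, Ces1b, Ces1c, Ces1e, Ces1g, Ces2a, Ces2c and Ces3b.

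Ces1g, a liver esterase whose loss in mice is known to raise liver and blood lipid, did not follow the other Ces1 genes. Its level was 1.98, 3.11 and 3.53 in KO FB1 livers and 2.24, 2.61 and 2.89 in KO control livers. The KO FB1 arrays spanned the whole KO control range, and the difference of 0.38 ± 0.24 did not pass the test (adjusted p = 0.223, 95% interval -0.13 to 0.88). Without the lowest array, KO FB1 replicate 5, it was 0.57 and called (adjusted p = 0.042).

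The 2 Ces2 genes moved in opposite directions. Ces2 enzymes prefer esters with a large alcohol group, as in several prodrugs, and Ces2a and Ces2c can also act on liver glycerides. Ces2a lay at 2.88, 3.19 and 3.90 in KO FB1 livers and at 3.71, 4.13 and 4.47 in KO control livers. A single KO FB1 array, replicate 3, reached into the control range, and the fall was 1.78-fold (-0.84 ± 0.15, adjusted p = 1.27e-04). Ces2c lay at 1.33, 1.996 and 2.45 in KO FB1 livers and at -0.25, 0.43 and 0.70 in KO control livers. These arrays did not overlap, and the rise was 2.97-fold (1.57 ± 0.26, adjusted p = 5.19e-05), at 1.22, 1.95 and 1.54 within the slides.

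The windows before the starts of Ces2a and Ces2c (chromosome 8, plus strand, GRCm38.p6, from RefSeq) are shown because these relatives, with Ces2b between them, moved oppositely. Capitals mark matches to AGGTCA, the half-site that many nuclear receptors bind, and to CCAAT, a common promoter box, on either strand.
Ces2a window, chr8:104733753-104734002: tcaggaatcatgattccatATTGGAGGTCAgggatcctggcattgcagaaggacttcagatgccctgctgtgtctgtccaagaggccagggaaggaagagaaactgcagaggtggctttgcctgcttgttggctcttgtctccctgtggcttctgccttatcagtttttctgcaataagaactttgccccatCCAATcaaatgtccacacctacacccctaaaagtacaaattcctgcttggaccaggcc
Ces2c window, chr8:104846818-104847067: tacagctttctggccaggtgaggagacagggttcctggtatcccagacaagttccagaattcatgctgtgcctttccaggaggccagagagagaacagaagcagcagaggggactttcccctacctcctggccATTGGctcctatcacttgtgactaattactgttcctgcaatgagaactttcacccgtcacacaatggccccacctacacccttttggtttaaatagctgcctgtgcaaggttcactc
The Ces2a window holds 1 half-site, 226 bases before the start, next to 1 of its 2 CCAAT matches. The Ces2c window holds 1 CCAAT match and no half-site. AGGTCA was found on either strand in 14% of 32817 promoter windows of this length, CCAAT in 33.8%, and 2 copies of AGGTCA in the same direction with any 4 bases between them (the spacing LXR prefers) in 0.0152%. This last motif was found in 0 of the 16 Ces windows, which says only that these letters are not in them. A local alignment of the Ces2a and Ces2c windows covered 216 bases with 70.4% identity.

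Ces3a and Ces3b, a pair of liver microsomal esterases, showed no called change with FB1 in KO mice. Ces3a lay at 7.38, 7.79 and 8.10 in KO FB1 livers and at 7.33, 7.70 and 7.84 in KO control livers (0.13 ± 0.12, adjusted p = 0.412, 95% interval -0.12 to 0.37). Ces3b lay at 4.04, 4.61 and 5.10 in KO FB1 livers and at 4.21, 4.78 and 4.90 in KO control livers (-0.08 ± 0.17, adjusted p = 0.744, interval -0.42 to 0.27). Both pairs of groups overlapped widely. For Ces3a the call depended on the scaling. It was called higher with quantile normalization (0.38 ± 0.11, adjusted p = 0.011) and in the authors' deposited table (0.46 ± 0.10, adjusted p = 0.00131).

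Per its annotation the Ces3a probe also matches Ces3b transcripts, and the Ces2c probe also matches the pseudogene Ces2d-ps, so the levels of these probes may include both. The Ces3a and Ces3b deviations from group means correlated at r = 0.93 over the 24 arrays. Ces2b, which is not among the 10 but lies beside Ces2c, had deviations correlated with those of Ces2c at r = 0.95. The Ces2b and Ces2c probes share a run of 24 bases, tgtcacctcagtctttgagctttc, so these 2 signals may not be independent readings. How far either probe binds the other transcript was not tested. Over the 45 pairs of the 10 genes the same correlation ranged from 0.04 to 0.93 with a median of 0.39.

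**Figure D2:**
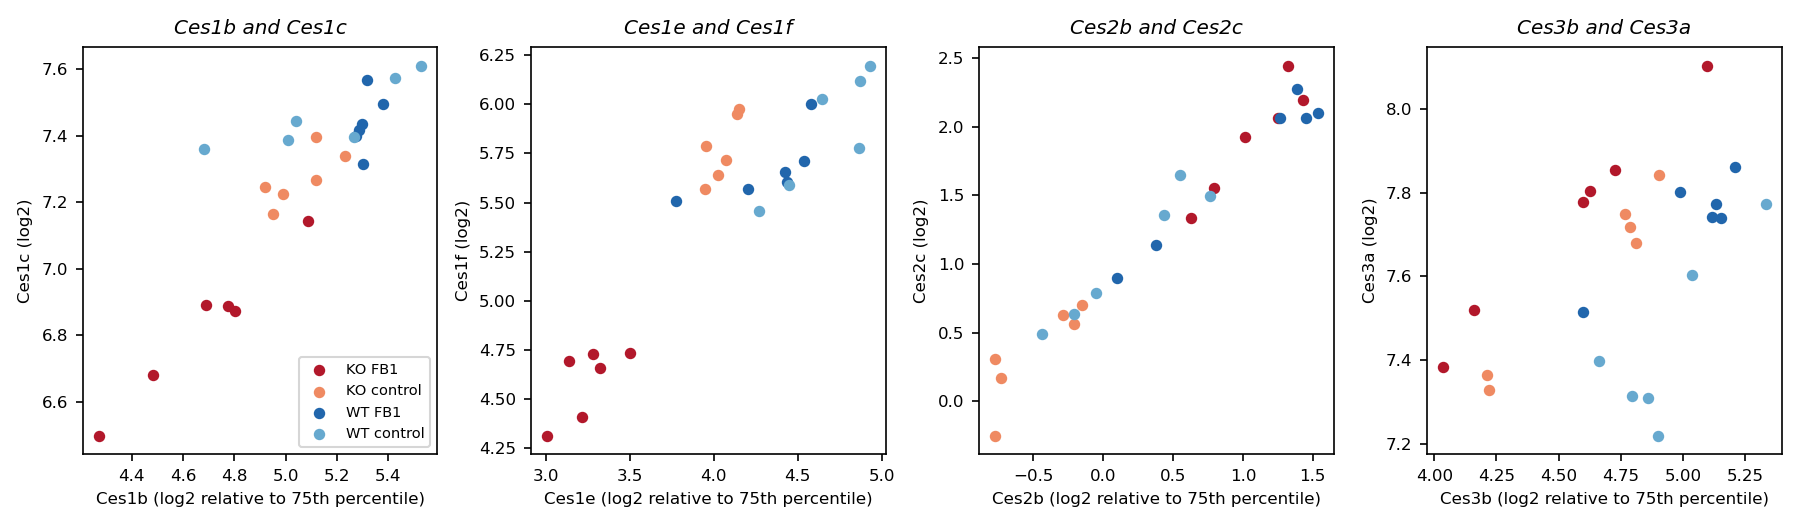
Levels (log2 relative to each array's 75th percentile) of 4 pairs of carboxylesterase genes on the 24 arrays, coloured by group. Ces2b and Ces2c follow each other across all groups, with KO FB1 arrays at 1.33 to 2.45 and KO control arrays at -0.25 to 0.70 on the Ces2c axis, while Ces1e and Ces1f separate the KO FB1 arrays from the others.

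Of the other Ces genes tested, Ces2b rose with FB1 in KO mice (1.56 ± 0.24, adjusted p = 3.26e-05) to between 0.62 and 1.43, against -0.77 to -0.15 in KO control livers. Ces2f fell (-0.60 ± 0.18, adjusted p = 0.0106). Ces2e (0.23 ± 0.13, adjusted p = 0.157), Ces2g (0.02 ± 0.09, adjusted p = 0.909), Ces1a (-0.35 ± 0.20, adjusted p = 0.157) and Ces1h (0.51 ± 0.29, adjusted p = 0.163) were not called. Ces1h was dim and was well above background on 2 KO FB1, 1 KO control, 3 WT FB1 and 6 WT control arrays. The genes of the family lie in 2 clusters on chromosome 8 (GRCm38.p6), the 6 Ces1 genes described here between 93056725 and 93337209 and the Ces2 and Ces3 genes between 104734003 and 105093929. In the plot along the clusters, the 5 adjacent Ces1 genes from Ces1b to Ces1f were lower in KO FB1 livers, while in the other cluster the neighbours Ces2a and Ces2b differed in sign.

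**Figure D3:**
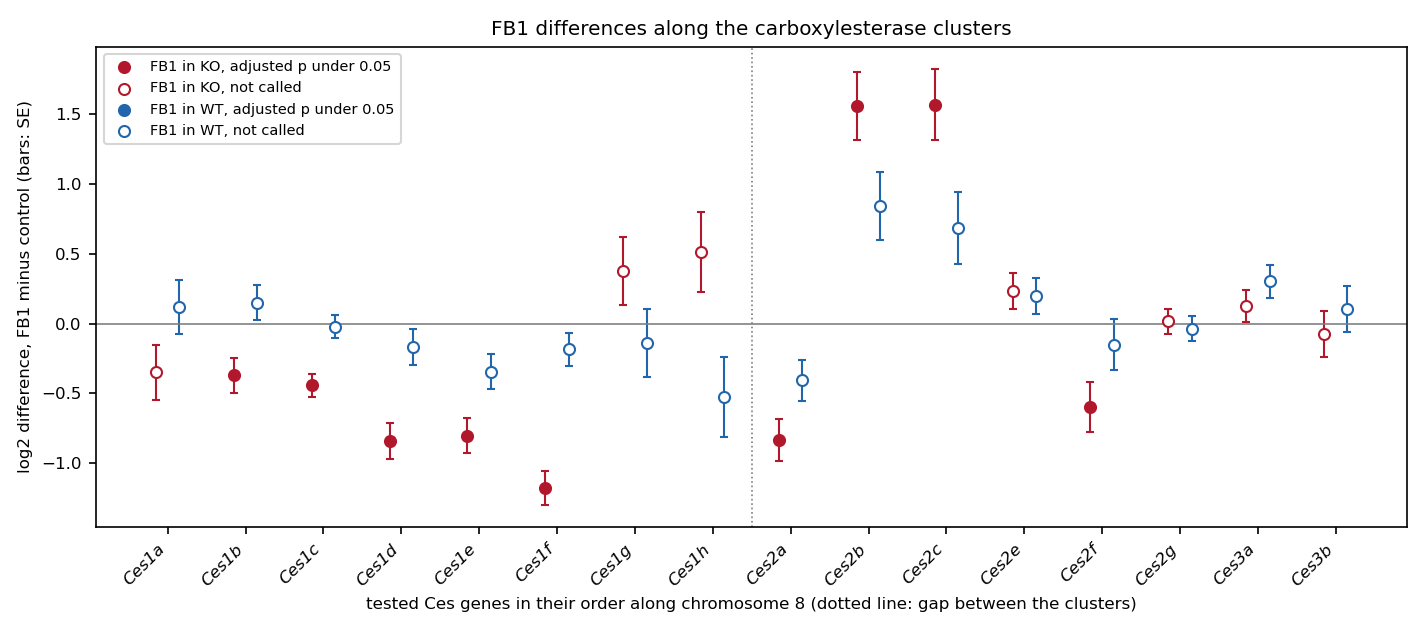
Log2 difference, FB1 minus control (vertical axis, bars are SE), in KO mice and WT mice for the 16 tested Ces genes in their order along chromosome 8. Filled points passed the test. In KO mice Ces1b to Ces1f lie between -1.18 and -0.37, and Ces2b and Ces2c lie at 1.56 and 1.57. No WT point is filled.

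Hepatocyte markers fell with FB1 in KO mice about as often as bright genes in general. Of 15 hepatocyte markers, such as Alb and Apoa1, 8 were lower and 0 higher (53.3% called), with a median of -0.28. Their mean level ranged from 7.40 to 7.94 in KO FB1 livers and from 7.82 to 8.04 in KO control livers. Among the 830 genes with a mean level above 6, 51.8% were called lower, with a median of -0.23. Of all tested genes 24.6% were called lower and 16.5% higher, which stands beside the counts of the other cell types too. Recruited macrophage markers were higher for 7 of 9 and their mean level lay at 1.87 to 2.31 in KO FB1 livers, against 0.26 to 0.82 in KO control livers. Stellate markers were higher for 4 of 9 and lower for 1, T and B cell markers higher for 3 of 5, cholangiocyte markers higher for 1 of 8, sinusoidal endothelial markers lower for 5 of 8, resident macrophage markers higher for 1 and lower for 2 of 9, and adipose markers higher for 1 and lower for 1 of 4. The higher adipose marker was Cidec, which is also among the lipid droplet genes below. No marker of intestine and kidney was called (0 of 3). Umod and Lct were well above background on 0 arrays. Adipoq was so on 0 KO FB1 and 4 KO control arrays, and Cfd on 0 arrays of both groups. With each array scaled to the mean of the hepatocyte markers, a setting chosen after seeing the data, Ces1d (-0.51), Ces1e (-0.47), Ces1f (-0.85) and Ces2a (-0.50) were still called lower and Ces2c (1.90) higher. On that scale Ces1b (-0.04, adjusted p = 0.804) and Ces1c (-0.11, adjusted p = 0.309) were not called, and Ces1g (0.71, adjusted p = 0.024) and Ces3a (0.46, adjusted p = 0.00345) were called higher. The part that the other cell types play in these values was not tested.

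FB1 in WT mice was followed by no called change among the carboxylesterases: 0 of the 10 were called (limma) in a comparison in which 2.89% of all tested genes were (2.06% higher and 0.824% lower). At an unadjusted p under 0.05 there were 4, Ces1e, Ces2a, Ces2c and Ces3a. Ces2c lay at 0.90, 2.06 and 2.28 in WT FB1 livers and at 0.49, 1.07 and 1.65 in WT control livers. The 2 lowest WT FB1 arrays lay inside the WT control range and the other 4 lay above it. The difference was 0.69 ± 0.26 (1.61-fold, adjusted p = 0.154, 95% interval 0.16 to 1.22).

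Ces1e lay at 3.78, 4.43 and 4.58 in WT FB1 livers and at 4.27, 4.76 and 4.93 in WT control livers, with overlap (-0.35 ± 0.13, adjusted p = 0.143, interval -0.61 to -0.09). Ces2a lay at 2.74, 3.20 and 3.42 in WT FB1 livers and at 3.37, 3.55 and 3.79 in WT control livers, where 1 WT FB1 array reached into the control range (-0.41 ± 0.15, adjusted p = 0.145, interval -0.71 to -0.10). Ces3a lay at 7.51, 7.76 and 7.86 in WT FB1 livers and at 7.22, 7.36 and 7.77 in WT control livers (0.30 ± 0.12, adjusted p = 0.172). The intervals of these 3 genes and of Ces2c left out 0, while the adjusted p of each missed the threshold.

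Of the other Ces1 genes that fell in KO mice, Ces1b, Ces1c, Ces1d and Ces1f had intervals in WT mice that held 0. Ces1f lay at 5.51, 5.63 and 6.00 in WT FB1 livers and at 5.46, 5.90 and 6.20 in WT control livers (-0.19 ± 0.12, adjusted p = 0.437, interval -0.44 to 0.06). Ces1d differed by -0.17 ± 0.13 (interval -0.44 to 0.10), Ces1c by -0.02 ± 0.08 (interval -0.19 to 0.15) and Ces1b by 0.15 ± 0.12 (interval -0.11 to 0.41). Ces1b had a narrow spread in WT FB1 livers, 5.27 to 5.38, inside the 4.68 to 5.53 of WT control livers. Ces1g (-0.14 ± 0.24) and Ces3b (0.10 ± 0.17) had intervals on both sides of 0. A single array set several of the low ends, since WT FB1 replicate 2 was the lowest of its group for 8 of the 10 genes. Without it, none was called either. Outside the 10, Ces2b differed by 0.84 ± 0.24 (adjusted p = 0.0645), with 0.10 to 1.53 in WT FB1 livers and -0.44 to 0.76 in WT control livers. Recruited macrophage markers were called higher for 4 of 9 in WT mice, beside 2.06% of all tested genes, and none of the 15 hepatocyte markers was called.

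The FB1 difference was larger in KO than in WT mice for Ces1c, Ces1d and Ces1f when the 2 effects were tested against each other. These 3 of 10 were called, all lower, while 9.3% of all tested genes were called (4.84% lower and 4.46% higher). The share called lower was 9.81% of genes with a mean level of 4 to 6 and 11.1% above 6, where these 3 lie. The median was -0.42 over the 10 and -0.04 over all tested genes. The difference of the effects, KO minus WT, was -0.996 ± 0.17 for Ces1f (adjusted p = 0.00144), -0.67 ± 0.18 for Ces1d (adjusted p = 0.023) and -0.42 ± 0.12 for Ces1c (adjusted p = 0.0249). For Ces1f it was called in all settings that used all slides. For Ces1c it was not called with quantile normalization (-0.24 ± 0.12, adjusted p = 0.21), in the authors' deposited table (-0.22 ± 0.11, adjusted p = 0.208), without a filter on dim probes (adjusted p = 0.0558) or on the hepatocyte marker scale (-0.17, adjusted p = 0.364). For Ces1d it was not called in the authors' deposited table (-0.54 ± 0.18, adjusted p = 0.069) or on the hepatocyte marker scale (-0.43, adjusted p = 0.188).

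The other 7 genes did not pass this test. Ces1b (-0.52 ± 0.18, adjusted p = 0.0633), Ces1e (-0.46 ± 0.18, adjusted p = 0.106) and Ces2c (0.88 ± 0.36, adjusted p = 0.13) had intervals that left out 0, at -0.88 to -0.16, -0.83 to -0.09 and 0.13 to 1.64. Whether FB1 raised Ces2c more in KO than in WT mice was therefore not settled by these arrays. Ces2a (-0.43 ± 0.21, adjusted p = 0.211), Ces1g (0.52 ± 0.34, adjusted p = 0.376), Ces3a (-0.18 ± 0.17, adjusted p = 0.558) and Ces3b (-0.18 ± 0.23, adjusted p = 0.696) had intervals that reached or crossed 0. Without KO FB1 replicate 3, the highest array of its group for 7 of the 10 genes, 5 genes were called, Ces1b (-0.60, adjusted p = 0.0192) and Ces2a (-0.56, adjusted p = 0.0395) being added. Ces1b was also called with array weights on all arrays (-0.53, adjusted p = 0.0306), which made the count 4, and without WT control replicate 4 (adjusted p = 0.0379) or 5 (adjusted p = 0.0317), and Ces1e without WT FB1 replicate 2 (-0.57, adjusted p = 0.0245). By the same test 2 of the 15 hepatocyte markers were called lower, beside 4.84% of all tested genes and 11.1% of those with a mean level above 6. Of the 9 recruited macrophage markers 3 were called higher, beside 4.46% of all tested genes. The part of these cells in the differences was not tested.

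**Figure D4:**
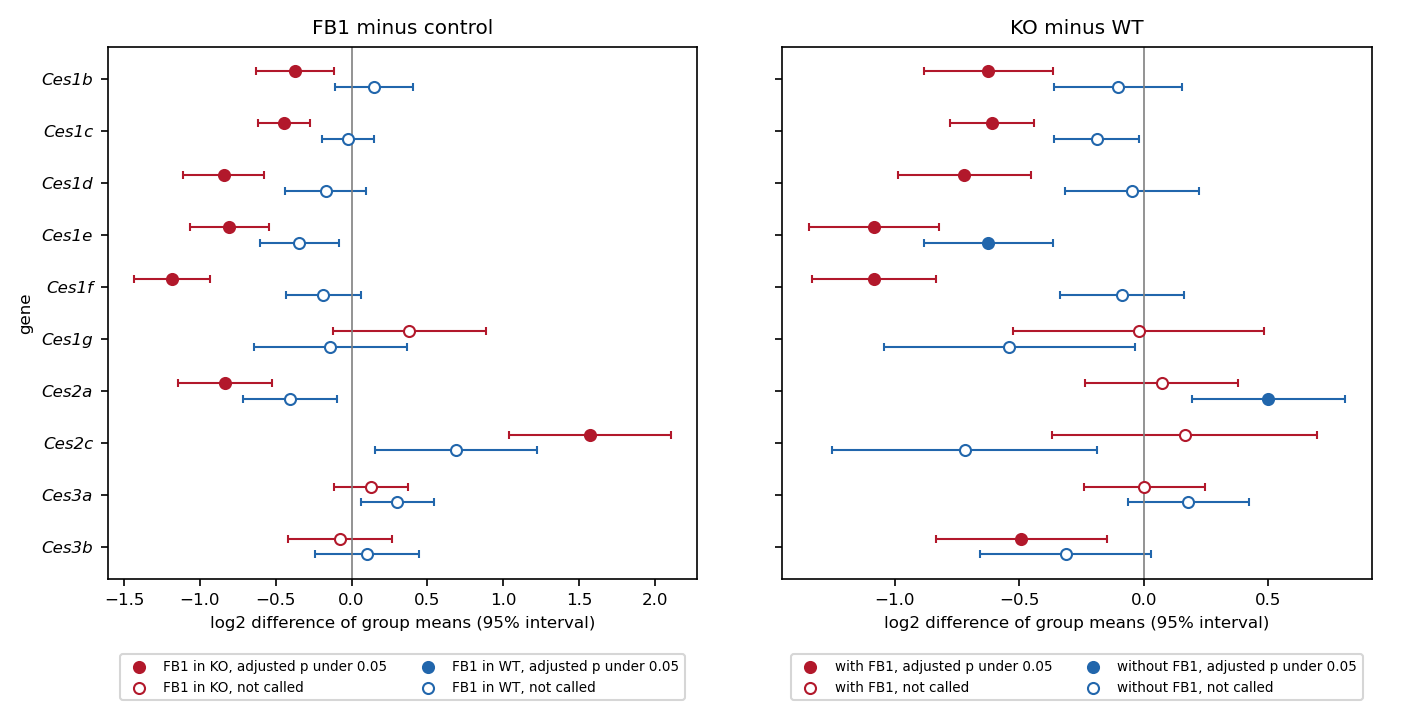
Log2 differences of group means with 95% intervals (horizontal axes) for the 10 carboxylesterases. The left panel gives FB1 minus control in KO and in WT mice, and the right panel KO minus WT with and without FB1. Filled points passed the test. The red FB1 points of Ces1d, Ces1e, Ces1f and Ces2a lie between -1.18 and -0.81 and that of Ces2c at 1.57, and no blue FB1 point is filled.

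Under FB1, KO livers had lower levels than WT livers of 5 of the 6 Ces1 genes and of Ces3b. Of the 10 genes 6 were called lower and 0 higher, while 32.8% of all tested genes were called (18.3% lower and 14.5% higher). The share called lower was 21% of genes with a mean level of 2 to 4, 30.4% at 4 to 6 and 39% above 6. The median difference was -0.55 over the 10 and -0.03 over all tested genes. For Ces1b to Ces1f the 2 groups did not overlap, which was so in either direction for 15.2% of all genes. This comparison and the FB1 comparison in KO mice share the KO FB1 arrays, so they are not independent.

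Ces1e and Ces1f had the largest of these differences. Ces1e lay at 3.005 to 3.502 in KO FB1 livers and at 3.78 to 4.58 in WT FB1 livers (-1.08 ± 0.13, 2.12-fold, adjusted p = 5.6e-07). Ces1f lay at 4.32 to 4.73 in KO FB1 livers and at 5.51 to 6.00 in WT FB1 livers (-1.08 ± 0.12, 2.12-fold, adjusted p = 2.91e-07). Ces1d was lower by 1.65-fold (-0.72 ± 0.13, adjusted p = 1.49e-04). Ces1b (-0.62 ± 0.12, adjusted p = 4.51e-04) and Ces1c (-0.61 ± 0.08, adjusted p = 4.33e-06) were lower by 1.54-fold and 1.53-fold, and both were called with quantile normalization and on the hepatocyte marker scale as well.

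Ces3b lay at 4.04, 4.61 and 5.10 in KO FB1 livers and at 4.60, 5.12 and 5.21 in WT FB1 livers, with overlap (-0.49 ± 0.17, adjusted p = 0.0253). Its sign differed on slide 2, with -0.81, 0.07 and -0.74 within the 3 slides. It was not called with quantile normalization (-0.37, adjusted p = 0.0722), in the authors' deposited table (-0.36, adjusted p = 0.0793), on the hepatocyte marker scale (-0.24, adjusted p = 0.241) or without any 1 of KO FB1 replicates 1 and 2 and WT FB1 replicates 4 and 6 (adjusted p 0.0507 to 0.0759). Ces3a differed by 0.001 ± 0.12 in this comparison and by 0.29 ± 0.10 in the authors' deposited table (adjusted p = 0.0337). Ces1g (-0.02 ± 0.24, adjusted p = 0.959), Ces2a (0.07 ± 0.15, adjusted p = 0.751) and Ces2c (0.16 ± 0.26, adjusted p = 0.666) were not called, with intervals of -0.53 to 0.48, -0.24 to 0.38 and -0.37 to 0.70. Of the hepatocyte markers 6 of 15 were lower and 0 higher, beside 18.3% of all tested genes lower and 39% of those with a mean level above 6. The mean level of these markers lay at 7.40 to 7.94 in KO FB1 livers, against 7.77 to 7.99 in WT FB1 livers. Resident macrophage markers were lower for 8 of 9, with a mean level of -0.87 to -0.32 in KO FB1 livers and 2.40 to 2.93 in WT FB1 livers, and recruited macrophage markers were higher for 6 and lower for 2 of 9. Stellate markers were higher for 4 and lower for 2 of 9, sinusoidal endothelial markers lower for 4 of 8, cholangiocyte markers higher for 2 of 8, T and B cell markers higher for 1 and lower for 1 of 5, adipose markers higher for 1 of 4 (again Cidec) and markers of intestine and kidney lower for 1 of 3. The part of these cells in the differences was not tested.

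Without FB1 the genotypes differed in 2 of the 10 genes, 1 lower and 1 higher in KO livers, while 15.2% of all tested genes were called (8.02% lower and 7.21% higher). The median difference was -0.15 over the 10 and 0.01 over all tested genes. Ces1e lay at 3.95, 4.05 and 4.15 in KO control livers and at 4.27, 4.76 and 4.93 in WT control livers. The groups did not overlap, as was so for 7.93% of all genes, and the difference was -0.62 ± 0.13 (1.54-fold, adjusted p = 0.00109), at -0.56, -0.79 and -0.53 within the slides. Gusb, which encodes the β-glucuronidase that egasyn binds, was higher in the same comparison by a small amount (0.18 ± 0.05, adjusted p = 0.0272), at 2.25 to 2.41 in KO control livers and 1.998 to 2.28 in WT control livers. Of the hepatocyte markers 0 of 15 were called here, while resident macrophage markers were lower for 9 of 9, with a mean level of -0.66 to 0.05 in KO control livers and 1.53 to 3.11 in WT control livers. Recruited macrophage markers were higher for 5 and lower for 3 of 9, T and B cell markers lower for 3 of 5, stellate markers higher for 1 of 9, sinusoidal endothelial markers higher for 1 of 8 and markers of intestine and kidney lower for 1 of 3, and the part of these cells was not tested.

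Ces2a was the gene that was higher, at 3.71, 4.13 and 4.47 in KO control livers and 3.37, 3.55 and 3.79 in WT control livers. A single KO control array lay inside the WT control range, and the difference was 0.50 ± 0.15 (1.41-fold, adjusted p = 0.0236). It was not called without KO control replicate 5 (adjusted p = 0.0663) or WT control replicate 6 (adjusted p = 0.0558). Ces2c was the reverse, lower in KO control livers (-0.25, 0.43 and 0.70) than in WT control livers (0.49, 1.07 and 1.65), at -0.72 ± 0.26, and just missed the threshold (adjusted p = 0.0624). It was called with slide as a block (adjusted p = 0.0385) and with array weights (adjusted p = 0.039), and also without WT FB1 replicate 5 (adjusted p = 0.0418), WT control replicate 2 (adjusted p = 0.0357) or WT control replicate 3 (adjusted p = 0.0498). Ces1g differed by -0.54 ± 0.24 (adjusted p = 0.152, interval -1.04 to -0.04) and was called when the 2 groups were fitted alone (adjusted p = 0.0252). Ces1c (-0.19 ± 0.08, adjusted p = 0.134) had an interval of -0.36 to -0.02. Ces1b, Ces1d, Ces1f, Ces3a and Ces3b were not called, with differences from -0.31 to 0.18.

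Of the 6 other Ces genes, Ces2f was called higher in KO control livers (0.55 ± 0.18, adjusted p = 0.0406), and Ces2b was at -0.77 to -0.15 in KO control livers and -0.44 to 0.76 in WT control livers (-0.66 ± 0.24, adjusted p = 0.0721). Ces1h entered the test through WT control livers, where all 6 arrays were well above background, while this was so on 1 of 6 KO control arrays, so its difference is given as a description. With dim arrays raised to the lowest signal well above background on the array, its means were -5.67 in KO control livers and -5.13 in WT control livers.

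Across the 4 groups the genes fell into a few orders. Ces1e had its lowest mean in KO FB1 livers, then KO control, WT FB1 and WT control (3.24, 4.05, 4.33 and 4.67), and the 2 WT groups did not differ past the threshold. Ces1b, Ces1c, Ces1d and Ces1f had their lowest means in KO FB1 livers, and for none of these 4 genes was WT FB1 against WT control or KO control against WT control called. For Ces2a the means were 3.24 in KO FB1, 4.08 in KO control, 3.17 in WT FB1 and 3.58 in WT control livers, so that KO control was the highest and the groups given FB1 were close to each other. For Ces2c they were 1.92, 0.35, 1.76 and 1.07 in the same order of groups, with KO control the lowest.

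Other genes that act on esters or handle the same lipids were examined as lists chosen for their function. Of 24 other esterases and lipid hydrolases, 3 rose and 10 fell with FB1 in KO mice, with a median of -0.27. That is 54.2% called, beside 41.2% of all tested genes. Brighter genes were called lower more often, 34.2% of those with a mean level of 2 to 4 and 51.8% above 6. Aadac, arylacetamide deacetylase, an esterase of the endoplasmic reticulum, lay at 5.74 to 6.13 in KO FB1 livers and 6.55 to 6.73 in KO control livers (-0.72 ± 0.07, adjusted p = 9.18e-08). Afmid, the formamidase of tryptophan breakdown, fell by 2.77-fold (-1.47 ± 0.15, adjusted p = 2.41e-07), and Pon1, the paraoxonase carried on high density lipoprotein, fell by 1.55-fold (-0.63 ± 0.09, adjusted p = 1.76e-05). Aadat, which stood in the list and its counts but is an aminotransferase, fell as well (-0.79 ± 0.12, adjusted p = 2.11e-05). In WT mice 0 of the 24 were called, where 2.89% of all genes were.

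Between genotypes Aadac was lower in KO mice both with FB1 (-1.36 ± 0.07, adjusted p = 4.06e-13) and without it (-0.78 ± 0.07, adjusted p = 9.29e-09). Its FB1 effects differed too (-0.58 ± 0.10, adjusted p = 9.98e-04). The list had 2 genes higher and 4 lower in KO than in WT mice under FB1, or 25% beside 32.8% of all genes, among them Ephx1, microsomal epoxide hydrolase, which was higher (0.53 ± 0.10, adjusted p = 2.66e-04). Without FB1 it had 2 higher and 2 lower, or 16.7% beside 15.2%, the lower ones being Aadac and Abhd2 (-0.62 ± 0.17, adjusted p = 0.0139). The higher ones were Gusb, the β-glucuronidase described above, and Aadat (0.36 ± 0.12, adjusted p = 0.0443), neither of which is an esterase.

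Of 15 genes of VLDL assembly and lipid droplets, 2 rose and 5 fell with FB1 in KO mice, or 46.7% called beside 41.2% of all tested genes, and 0 were called in WT mice (2.89% of all genes). Cidea and Cidec, droplet proteins that favour large droplets, rose by 2.51 ± 0.28 (adjusted p = 5.29e-07) and 1.88 ± 0.31 (adjusted p = 6.66e-05). Cidea lay at -3.79 to -2.26 in KO FB1 livers and at -6.21 to -4.98 in KO control livers, where 3 of 6 arrays were well above background, so the size of its difference is uncertain. Dgat2, which makes triglyceride, and Sar1b, which serves the export of lipoproteins from the endoplasmic reticulum, fell by 1.85-fold (-0.89 ± 0.11, adjusted p = 3e-06) and 1.70-fold (-0.76 ± 0.12, adjusted p = 3e-05). Under FB1 the list had 2 genes higher and 4 lower in KO than in WT mice (40% beside 32.8%), and without FB1 it had 0 called (15.2% of all genes).

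Of 14 regulators of liver genes, 7 fell and 0 rose with FB1 in KO mice, or 50% lower beside 24.6% of all tested genes, and 0 were called in WT mice (2.89% of all genes). Klf15, a glucocorticoid-responsive factor, fell by 2.22-fold, to 3.66 to 4.90 in KO FB1 livers against 4.95 to 5.51 in KO control livers (-1.15 ± 0.19, adjusted p = 5.83e-05). Cebpa, a factor of hepatocyte identity, and Stat5b, which carries the growth hormone signal, fell by smaller amounts, with differences of -0.56 ± 0.11 (adjusted p = 5.18e-04) and -0.50 ± 0.09 (adjusted p = 2.01e-04). Cebpa and Stat5b had mean levels of 2 to 4, where 34.2% of all genes were called lower in this comparison. Klf15 lay at 4 to 6, where 46.6% were. Under FB1 8 of the 14 were lower in KO than in WT mice, the deleted Nr1h3 and Nr1h2 included (18.3% of all tested genes were lower). That share was 21% of genes with a mean level of 2 to 4 and 30.4% at 4 to 6. Without FB1 3 were lower, Nr1h3, Nr1h2 and Nr1i3, which encodes CAR (-0.46 ± 0.16, adjusted p = 0.0466), where 8.02% of all tested genes were lower. The 2 deleted genes were bound to be lower and are part of both counts. Whether the other regulators exceed the share of all genes was not tested.

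The genes whose pattern over the 24 arrays lay nearest to each carboxylesterase were found by the root mean square difference of gene-centred log2 levels, among 22017 genes outside the family. For Ces1c the nearest 3 were Rdh16f2, Pygl and Ugt1a6b (0.11 to 0.12), where the spread of Ces1c itself was 0.28 on the same measure. Rdh16f2 was also nearest to Ces1b (0.15, own spread 0.30), with Ap4b1 at 0.17. For Ces1d the nearest 3 were Dhrs7, Ugt3a2 and Ugt3a1 (0.15 to 0.18, own spread 0.42), for Ces1e Cmtm8, Mettl7a1 and Cyp2d22 (0.17 to 0.20, own spread 0.57), and for Ces1f Hpgd was nearest (0.18, own spread 0.55). The nearest to Ces2a were Cyp3a25, Ggnbp1 and Cyp3a57 (0.20 to 0.21, own spread 0.43), and to Ces1g Vopp1, Bcl2 and P2rx7 (0.31 to 0.33, own spread 0.45). For Ces3a Pyroxd2 lay at 0.16 (own spread 0.22), and for Ces3b Ggact lay at 0.23 (own spread 0.34). Ces2c had its nearest gene outside the family at 0.43, against its own spread of 0.75, with E2f1 and Psat1 at 0.45, while Ces2b, whose probe shares bases with it, lay at 0.15.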

How the data were processed

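Liver RNA of 24 mice was measured on 1 array each. Per the file headers, the deposited scanner intensities were made with Agilent Feature Extraction 10.10.1.1, which removed a fitted spatial trend of the background and a multiplicative trend on each array separately. The authors' deposited log2 values cover 33417 probes with nearly equal column medians (7.86). Each of the 24 columns matched its own array best, and a correction for background or a filter behind them is not stated in the labels. They were used as an alternative in which 7 of the 10 genes could be tested. The submitters' processing notes name limma.

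Here log2 of the processed intensity minus each array's 75th percentile over non-control spots was used. Outlier spots (64 to 121 per array of 59305) were set to missing, and 0 were saturated. Testing required 4 or more values in each group and a signal well above background on all remaining arrays of some group, which 33417 probes met. The brightest tested probe stood for a gene (22088 genes). Names came from RefSeq accessions (GRCm38.p6) for 32994 of 56605 probes, else from the file. Probe coordinates are mm9.

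The 24 arrays entered 1 limma 3.58.1 fit of 4 group means (lmFit, eBayes, Benjamini-Hochberg) in R 4.3.3, with the data.table package (version 1.17.8) for reading. Windows were searched and figures drawn with Python 3.11.15, pandas 2.3.3, Biopython 1.88 and matplotlib 3.10.9. On simulated data for FB1 in KO (22088 genes, 100 changed at each size), 82% of log2 changes of 1 and 53% of 0.5 were recovered, and 5.59% of all calls were false. The genes, lists and tests were chosen with earlier results of these data known. Named genes were the 10, the other Ces genes, Nr1h3 and Nr1h2, up to 4 called genes of each functional list with the smallest p, and up to 3 nearest neighbours, of which those with accession-like names are left out. The values of 1 gene of the regulator list are not reported here. Alternatives were quantile normalization, normexp (offset 50), values from the authors, other filters, outliers kept, the mean of probes, a block for slide or for replicate number, single slides, only the compared groups, array weights, an intensity trend, a threshold of 1.5-fold, each array left out and, added after seeing the data, scaling to hepatocyte markers.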

Additional observations from a re-analysis of the deposited data

Results flagged for a closer look

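The outer arrays of some groups stood apart from the rest by Dixon's criterion. Among 40 groups of 6 tested over the 10 genes, 4 had such an array, and chance gives about 1 in 20. Ces1d in KO control replicate 6 was the highest of its group at 6.01, 0.50 above the next. WT FB1 replicate 2 was the lowest of its group for the other 3, with Ces1g at 1.77, 1.31 below the next, Ces3a at 7.51 and Ces3b at 4.60.

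For 3 genes the FB1 effect differed between genotypes by the interaction test in limma, KO minus WT, at -0.42 for Ces1c, -0.67 for Ces1d and -0.996 for Ces1f.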

How the results depend on the processing

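The count of called genes for FB1 in KO (7) was 3, 2 and 6 on slides 1, 2 and 3 alone, where 8.92%, 1.36% and 22.2% of all genes were called, and 6 to 8 with any 1 array left out. In place of 6 lower and 1 higher, quantile normalization gave 4 lower and 2 higher (40.3% of all genes called). The hepatocyte marker scale gave 4 lower and 3 higher (48.7%). The authors' values gave 3 lower and 2 higher of 7 tested (37.2%). For KO against WT with FB1 (6) the count was 3, 1 and 5 on the single slides (7.32%, 3.18% and 18.8% of all genes), and 5 to 6 with an array left out. For KO against WT without FB1 (2) it was 1 at 1.5-fold or more, 1 in the authors' values, where 7 genes could be tested, 1, 0 and 1 on the single slides (3.28%, 1.92% and 4% of all genes) and 1 to 3 with an array left out. For the difference of the FB1 effects (3) it was 1 in the authors' values, 0, 0 and 2 on the single slides (0.0272%, 0.0136% and 4.89% of all genes), 1 on the hepatocyte marker scale and 3 to 5 with an array left out. Single slides have 2 arrays a group. FB1 in WT had 0 called under every alternative run. The replicate numbers were treated as names only. Same-numbered arrays of different groups had a median r of -0.003 in their deviations, against 0.0004 for arrays of other numbers. Their r ranged from -0.20 to 0.24, and 5 of 36 pairs lay above 0.1. Such values cannot exclude that the mice were matched by number. With replicate number as a block the counts were 7, 0, 6, 3 and 3 in the order of the report's 5 comparisons (FB1 in KO, FB1 in WT, KO against WT with and without FB1, difference), and Ces2c was added without FB1 (adjusted p = 0.0478). Quantile normalization moved the median of all genes by 0.03 or less.

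Signs turned in differences that had not passed the test, with the exception of Ces3b with FB1, which was called with all slides and turned on slide 2 alone (0.069). With quantile normalization these were Ces3b for FB1 in KO (0.068), Ces1c for FB1 in WT (0.039), Ces1g with FB1 (0.036), and Ces1d (0.054) and Ces1f (0.014) without FB1. In the authors' values they were Ces3b in KO (0.12), Ces1c in WT (0.079) and Ces3a in the difference of effects (0.071). On the hepatocyte marker scale they were Ces3b in KO (0.26), Ces1c in WT (0.063), Ces1g with FB1 (0.24), and Ces3a (0.071) and Ces3b (0.069) in the difference. Normexp turned Ces1g with FB1 (0.0033), and array weights turned Ces2a (-0.0028) and Ces3a (-0.053) with FB1. Slide 1 alone turned Ces1g (-0.23) and Ces3a (-0.13) in KO, Ces1b (-0.0050) and Ces1g (0.051) in WT, Ces2a (-0.018), Ces2c (-0.057) and Ces3a (-0.18) with FB1, and Ces1g (-0.28) in the difference. Slide 2 alone turned Ces3b in KO (0.30), Ces1g with FB1 (0.82), Ces1d without FB1 (0.084), and Ces1e (0.21), Ces2a (0.43), Ces3a (0.048) and Ces3b (0.24) in the difference. Slide 3 alone turned Ces1c (0.087), Ces1d (0.093) and Ces1f (0.24) in WT, Ces2a (-0.44), Ces2c (-0.039) and Ces3a (-0.11) with FB1, and Ces1b (0.081) and Ces1f (0.14) without FB1. With an array left out, values ranged from -0.19 to 0.025 for Ces3b in KO, -0.050 to 0.0060 for Ces1c and -0.24 to 0.10 for Ces1g in WT, -0.26 to 0.18 for Ces1g, -0.061 to 0.15 for Ces2a, -0.0081 to 0.28 for Ces2c and -0.071 to 0.073 for Ces3a with FB1, and -0.145 to 0.0064 for Ces1d without FB1. The causes of these changes were not tested.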
